A study of Mus musculus with 28 samples.

Results

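The p53 target genes described here are 10 listed genes outside the BCL2 family (Trp53, Cdkn1a, Mdm2, Trp53inp1, Ccng1, Sesn1, Zmat3, Fas, Gadd45a and Btg2), chosen by name and matched on the array's gene symbols. A total of 9 of the 10, with 19 probe sets, were measured among 18193 genes with 34945 probe sets of a single symbol, and Trp53 itself was not analysed here. RNA came from 28 cultures of mouse fibroblasts, 1 array each, in 14 groups of 2 biological replicates. The NIH3T3 line and a line labelled NIH3T3 K-ras were each collected at 0 h, when the medium was changed, and 24, 48 and 72 h later in medium with 25 or 1 mM glucose. All cultures had the same serum and glutamine, and the 0 h groups carry the 25 mM label. Each kind of cell was represented by 1 line, so a difference between them is a difference between these lines only. RNA was taken from whole cultures, so fewer cells expressing a gene and less RNA per cell cannot be told apart.

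p53 is a transcription factor that is held low in unstressed cells by Mdm2, a ubiquitin ligase whose own gene is a p53 target, and that accumulates after DNA damage, oncogene activity or metabolic stress. Its targets stop the cell cycle (Cdkn1a, which encodes the cyclin-dependent kinase inhibitor p21, Btg2 and Gadd45a), limit reactive oxygen and mTORC1 signalling (Sesn1, which encodes sestrin 1), promote autophagy and cell death (Trp53inp1 and the death receptor gene Fas), bind RNA (Zmat3) or feed back on p53 (Mdm2 and Ccng1, which encodes cyclin G1). Several of them also have inducers other than p53. FOXO factors act on Sesn1, and nutrient and endoplasmic reticulum stress act on Gadd45a.

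The windows of 250 bases before the annotated transcription starts were searched for the p53 half-site, a degenerate motif of 10 letters that reads the same on both strands. RefSeq sequences on GRCm38.p6 covered 8 of the 10 listed genes with 10 windows, and Trp53inp1 and Zmat3 were not matched. A half-site was present in 6 of the 10 windows, against 2341 of 32851 windows of all genes (7.13%). The windows of 4 genes are shown because their RNA behaved differently below, with the half-site in capitals. They lie at chr17:29090729-29090978 on the plus strand for the first start of Cdkn1a, chr10:117710759-117711008 on the minus strand for Mdm2, chr10:41887189-41887438 on the plus strand for the second start of Sesn1 and chr6:67037408-67037657 on the minus strand for Gadd45a.
Cdkn1a: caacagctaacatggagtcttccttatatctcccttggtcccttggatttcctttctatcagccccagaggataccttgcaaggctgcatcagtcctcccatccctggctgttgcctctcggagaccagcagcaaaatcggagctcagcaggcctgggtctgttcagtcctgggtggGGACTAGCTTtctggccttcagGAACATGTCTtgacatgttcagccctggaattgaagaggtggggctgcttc
Mdm2: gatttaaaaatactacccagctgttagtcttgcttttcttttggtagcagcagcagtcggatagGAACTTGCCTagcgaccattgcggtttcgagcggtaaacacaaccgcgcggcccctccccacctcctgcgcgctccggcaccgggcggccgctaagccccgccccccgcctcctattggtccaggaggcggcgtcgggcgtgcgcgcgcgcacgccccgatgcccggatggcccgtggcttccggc
Sesn1: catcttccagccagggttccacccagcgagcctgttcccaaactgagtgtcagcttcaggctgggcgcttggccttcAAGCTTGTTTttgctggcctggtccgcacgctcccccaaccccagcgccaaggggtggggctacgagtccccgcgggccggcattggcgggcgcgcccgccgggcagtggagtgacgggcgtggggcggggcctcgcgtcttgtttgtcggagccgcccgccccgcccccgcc
Gadd45a: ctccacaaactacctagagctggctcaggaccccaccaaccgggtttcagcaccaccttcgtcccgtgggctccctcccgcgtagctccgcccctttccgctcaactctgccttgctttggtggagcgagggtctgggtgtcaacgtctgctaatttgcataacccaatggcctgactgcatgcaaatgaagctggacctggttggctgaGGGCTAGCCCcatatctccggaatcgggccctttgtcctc
The Cdkn1a window held 2 half-sites, 73 and 51 bases before the first start and 12 bases apart. They lie 2863 and 2841 bases before the second start of the gene. Only exact matches were counted, and tgacatgttc, which directly follows the second half-site, was not one. Single half-sites lay 186 bases before the start of Mdm2, 173 before the second start of Sesn1, 40 before that of Gadd45a and 185 before that of Ccng1, and the Trp53 window also held one. The windows of Fas, Btg2, the second start of Cdkn1a and the first start of Sesn1 held no such letters. A match is a description of the letters only, and binding was not measured.

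Each value below is the log2 ratio of a probe set to its own median over the 28 arrays, so a difference of 1 is 2-fold and levels of different genes cannot be compared. The table holds no levels, so neither the presence of the fibroblast markers nor the absence of any gene could be checked. On 6 arrays Il33 and Krt14, whose ratios separate the lines, read as in the other line. These were both NIH3T3 arrays at 1 mM and 24 h, the first NIH3T3 replicate at 1 mM and 48 h, and the first K-ras replicates at 25 mM and 0 h, 1 mM and 48 h, and 1 mM and 72 h. The labels were kept throughout, and values without those 6 arrays are given beside most results. The first K-ras replicate at 25 mM and 72 h also stood apart, with an interquartile range of 0.78 against at most 0.53 elsewhere and a mean of 2.98 for the bioC hybridisation controls against at most 0.83. The bioC controls read below -0.60 on 12 arrays, all labelled NIH3T3 and including every NIH3T3 array at 25 mM, so at 25 mM the bioC level and the line cannot be told apart.

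Over 72 h at 25 mM glucose, Trp53inp1, Sesn1 and Fas rose in NIH3T3 cells, while Cdkn1a, Mdm2, Ccng1, Btg2, Gadd45a and Zmat3 did not pass the test. The fit was limma across all 28 arrays with Benjamini-Hochberg adjustment over all probe sets, and an adjusted p under 0.05 was called. In all, 5 of the 19 member probe sets were called, 5 higher and 0 lower, against 5.11% of all probe sets called, 3.14% higher and 1.97% lower. At an unadjusted p under 0.05 there were 6 (19.6% of all). The 5 probe sets stand for 3 genes, since 3 of them target Sesn1. The median difference was 0.31 over the member probe sets and -0.07 over all probe sets.

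Trp53inp1, whose product acts in p53-dependent autophagy and apoptosis, moved most. Its probe set 1416926_at read -2.88 and -3.07 at 0 h, -2.09 and -2.35 at 24 h, 1.98 and -0.19 at 48 h, and 1.75 and 2.0 at 72 h. All 4 early arrays were below all 4 later ones, and the replicates disagreed most at 48 h. The difference between 72 and 0 h was 4.85 ± 0.87 (SE, n = 2 against 2), or 28.8-fold, with an adjusted p of 0.00659 by limma. The other Trp53inp1 probe set, 1416927_at, read -0.17 and -0.39 at 0 h and 0.16 and 0.56 at 72 h, a difference of 0.64 ± 0.35 that was not called (adjusted p = 0.338 by limma). The groups did not overlap on either probe set, but the sizes differed widely.

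**Figure D1:**
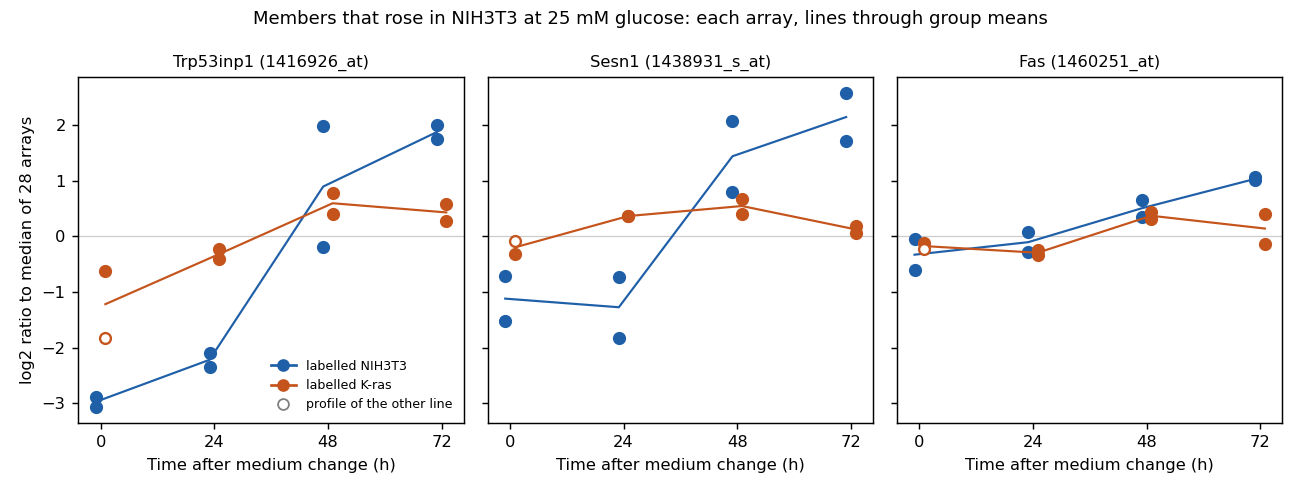
The log2 ratio of Trp53inp1, Sesn1 and Fas to the median of the 28 arrays is plotted against hours after the medium change at 25 mM glucose, with each point an array and lines through the group means. The NIH3T3 points in blue end above their 0 h points in all 3 panels, whereas the K-ras points in orange span a narrower range, and the open point is an array with the profile of the other line.

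Sesn1, whose sestrin product restrains mTORC1 and oxidative damage, also stepped up between 24 and 48 h. Probe set 1438931_s_at read -0.72 and -1.52 at 0 h, -1.82 and -0.73 at 24 h, 2.08 and 0.80 at 48 h, and 2.58 and 1.71 at 72 h. The arrays at 0 and 24 h overlapped with each other and lay below all those at 48 and 72 h. The difference between 72 and 0 h was 3.26 ± 0.77 (SE), or 9.58-fold, with an adjusted p of 0.0233 by limma. Of the other 3 probe sets, 1454699_at rose by 3.03 ± 0.77 and 1433711_s_at by 2.47 ± 0.67, with adjusted p = 0.0309 and 0.0426 by limma. The call of 1433711_s_at was lost after a second quantile normalisation, at 2.0 (adjusted p = 0.0526 by limma), and with the replicate number as a block (adjusted p = 0.053 by limma). The last, 1444376_at, differed by 0.60 ± 0.19 and was not called (adjusted p = 0.0725 by limma). All 4 Sesn1 probe sets therefore read higher at 72 h, with sizes from 1.52-fold to 9.58-fold.

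Fas, the death receptor gene, rose by less. It read -0.61 and -0.05 at 0 h, 0.07 and -0.28 at 24 h, 0.66 and 0.35 at 48 h, and 1.06 and 1.01 at 72 h. The difference of 1.37 ± 0.25 (SE) is 2.58-fold, with an adjusted p of 0.0072 by limma. The arrays at 72 h lay above every other NIH3T3 array at 25 mM.

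The calls rest on 2 arrays a group. Without either 0 h array 1 of the 19 member probe sets was called by limma, and without either 72 h array 0 were, while the Trp53inp1 difference stayed between 4.72 and 4.98 and that of Fas between 1.09 and 1.64. Calls over all probe sets dropped from 1785 to between 31 and 379 (0.0887% to 1.08%) in the same 4 fits. With only the 4 compared arrays in the fit, 9 were called, 8 higher and 1 lower, against 23.5% of all probe sets. The 6 arrays with the other line's profile are not among the 4 compared, and without them 5 were called against 9.61% of all probe sets. The fibroblast marker list read higher over the same interval, with a median of 1.43 over 18 probe sets and 2 of them called, and its part in the result was not tested.

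At 48 h the same genes were already high but fewer passed. Of the 19 member probe sets 0 were called by limma (0.0372% of all), and 7 had an unadjusted p under 0.05 (11.3% of all), all higher. Trp53inp1 differed from 0 h by 3.87 ± 0.87, Sesn1 (1438931_s_at) by 2.56 ± 0.77 and Fas by 0.84 ± 0.25, with adjusted p = 0.119, 0.207 and 0.209 by limma. Trp53inp1 depended on the 48 h array. It was called without the second, at 4.96 (adjusted p = 0.0232 by limma), and not without the first, at 2.78 (adjusted p = 1 by limma). The fit without the 6 arrays called 3, all higher (1.27% of all), namely Trp53inp1, with adjusted p = 0.0142 by limma, and Sesn1 on 1438931_s_at and 1454699_at. At 24 h 0 were called by limma (0.00572% of all) and 1 had an unadjusted p under 0.05 (4.9% of all), a Btg2 probe set, 1448272_at, at 0.74 ± 0.25. At that time 17 of the 19 differences were positive, against 53.3% of all probe sets.

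Cdkn1a, a widely used readout of p53 activity, did not follow. On 1421679_a_at it read 0.15 and 0.04 at 0 h, 0.49 and 0.14 at 24 h, -0.26 and 0.33 at 48 h, and -0.28 and 0.13 at 72 h, and the groups at 0 and 72 h overlapped. Its difference was -0.17 ± 0.35 and turned to 0.04 without the first 72 h replicate, and its other probe set, 1424638_at, differed by 0.31 ± 0.25. Neither value left the spread between arrays, so no direction can be given for Cdkn1a in these cells over time.

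Mdm2 read lower at the end than at the start on each of its 3 probe sets, but no call was made. Probe set 1427718_a_at read -0.01 and -0.09 at 0 h, 0.67 and 0.17 at 24 h, -0.88 and -0.31 at 48 h, and -0.54 and -1.05 at 72 h. Its arrays at 48 and 72 h lay below those at 0 and 24 h. The difference between 72 and 0 h was -0.74 ± 0.40 (adjusted p = 0.328 by limma), and without the 6 arrays the same difference had an SE of 0.25 (adjusted p = 0.0795 by limma). With only the 4 compared arrays in the fit it was called (adjusted p = 0.0263 by limma). The other probe sets, 1423605_a_at and 1457929_at, differed by -0.20 ± 0.24 and -0.12 ± 0.19.

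The remaining members were not called. Ccng1 differed by 0.28 ± 0.45, 0.17 ± 0.38 and 0.43 ± 0.28 on its 3 probe sets, and Btg2, an antiproliferative gene, by -0.64 ± 0.69 and -0.05 ± 0.25. Zmat3 differed by 0.10 ± 0.35, and Gadd45a by 0.73 ± 1.33. With only the 4 compared arrays in the fit Gadd45a was called (adjusted p = 0.031 by limma).

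**Figure D2:**
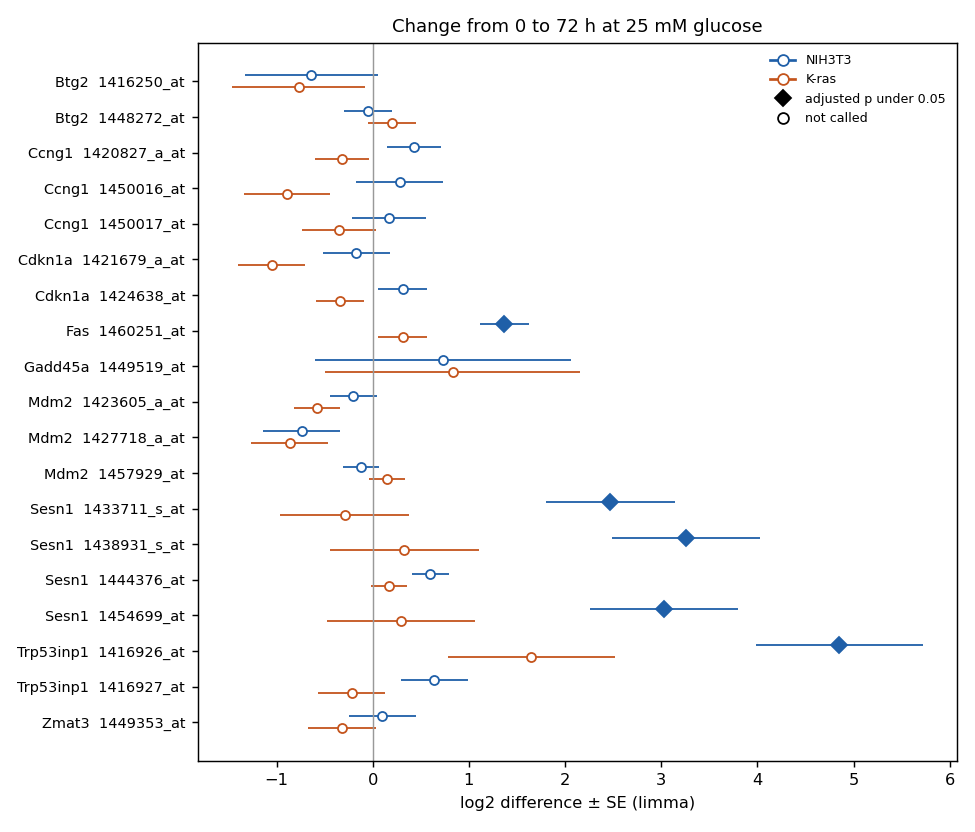
The log2 difference between 72 and 0 h at 25 mM glucose is plotted for each of the 19 member probe sets, in blue for NIH3T3 and orange for K-ras, with bars of 1 SE from limma. Filled diamonds mark the 5 probe sets called at an adjusted p under 0.05, all of NIH3T3, and open circles those not called.

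In the K-ras line 0 of the 19 member probe sets were called by limma over the same 72 h, as were 0 over all probe sets (0.0%), and 3 had an unadjusted p under 0.05 (14.2% of all). Trp53inp1 read -1.82 and -0.62 at 0 h, -0.23 and -0.41 at 24 h, 0.78 and 0.41 at 48 h, and 0.59 and 0.27 at 72 h. Its arrays at 0 h were below all later ones, and the difference was 1.65 ± 0.87 (adjusted p = 0.396 by limma). The other Trp53inp1 probe set, 1416927_at, did not rise, with means of 0.02 at 0 h and -0.2 at 72 h and overlapping arrays. Sesn1 on 1438931_s_at stayed between -0.32 and 0.68 on the 8 arrays, and Fas differed by 0.31 ± 0.25. On 1433711_s_at Sesn1 read -1.41 at 72 h on the array that stood apart and 0.42 on its replicate. Without the first 0 h array, which has the NIH3T3 profile, and the other 5 such arrays, Trp53inp1 differed by 1.05 ± 0.71. That fit leaves 1 array at 0 h. Its median difference was -0.23 over the member probe sets and 0.02 over all probe sets. At 24 and 48 h 0 of the 19 differed from 0 h by limma's adjusted p (0.0% and 0.00286% of all), and 0 and 2 had an unadjusted p under 0.05 (1.59% and 6.63% of all). The 2 at 48 h were Mdm2 on 1423605_a_at at -0.63 and Fas at 0.55. With the 6 arrays left out 0 were called at either time by limma (0.0% and 0.0143% of all), and 0 had an unadjusted p under 0.05.

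The 3 K-ras probe sets with an unadjusted p under 0.05 were lower at 72 h, 2 of Mdm2 and 1 of Cdkn1a. Cdkn1a on 1421679_a_at read 0.25 and -0.23 at 0 h and -1.65 and -0.43 at 72 h. The lowest value comes from the array that stood apart. The difference was -1.05 ± 0.35 (adjusted p = 0.244 by limma), or -0.81 without the 0 h array that has the NIH3T3 profile. It was -0.44 without the array that stood apart and -1.66 without its replicate at 72 h, when it was called (adjusted p = 0.00659 by limma). Mdm2 differed by -0.58 ± 0.24 on 1423605_a_at and by -0.86 ± 0.40 on 1427718_a_at. The second stayed between -0.90 and -0.82 when any 1 of the 4 compared arrays was left out. On 1457929_at Mdm2 did not fall, with means of -0.14 at 0 h and 0.01 at 72 h.

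The difference between the lines in the change over 72 h was tested as an interaction term. Of the 19 member probe sets 0 were called by limma (0.00286% of all), and 5 had an unadjusted p under 0.05 (10.5% of all), all with the smaller change in K-ras. They were the 5 that rose in NIH3T3, whose arrays this test shares. The K-ras change minus the NIH3T3 change was -3.20 ± 1.23 for Trp53inp1 (adjusted p = 0.424 by limma), where leaving out any array kept the sign and gave adjusted p from 0.231 to 0.806. It was -2.94 ± 1.09 for Sesn1 on 1438931_s_at and -1.05 ± 0.36 for Fas, with adjusted p = 0.424 and 0.421 by limma. A smaller change in K-ras was therefore seen in the values and not established by the test. Without the second K-ras replicate at 72 h, which leaves the array that stood apart, 1 was called against 6.34% of all probe sets. With the 6 arrays left out 0 were called by limma (0.0229% of all) and 5 had an unadjusted p under 0.05, Trp53inp1 among them at -3.80 ± 0.92.

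Between the lines at 25 mM, averaged over the 4 times, Zmat3 was higher in K-ras and no other member passed. Zmat3 encodes a zinc finger protein that binds RNA and alters the splicing and stability of its targets. Of the 19 member probe sets 1 was called, 1 higher and 0 lower, against 10.0% of all probe sets called, and 3 had an unadjusted p under 0.05 (23.4% of all), so the share of members called was below that of all probe sets. In NIH3T3 Zmat3 read -0.41 and -0.55 at 0 h, -0.13 and -0.42 at 24 h, -0.22 and -0.76 at 48 h, and -0.37 and -0.40 at 72 h. In K-ras it read -0.11 and 0.63, 0.52 and 0.43, 0.25 and 0.21, and -0.44 and 0.32 at the same times. Only the first K-ras replicates at 0 and 72 h fell to the NIH3T3 values or near them, the first of which has the profile of NIH3T3 and the second of which is the array that stood apart. The difference was 0.64 ± 0.18 (SE), or 1.56-fold, with an adjusted p of 0.0308 by limma.

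The Zmat3 difference was 0.73 ± 0.13 without the 6 arrays (adjusted p = 0.00125 by limma), when 1 of the 19 was called against 16.2% of all probe sets. Leaving out each of the 16 arrays in turn gave 0.54 to 0.73, with adjusted p from 0.0151 to 0.103. The call held in 4 of the 16 fits and was lost without either NIH3T3 array at 0 or 72 h, the second NIH3T3 array at 24 or 48 h, the second K-ras array at 0 or 72 h, or any K-ras array at 24 or 48 h. With the bioC level as a block the difference was 0.17 (adjusted p = 0.973 by limma) and 0 member probe sets were called, as were 0 over all probe sets. In that block every NIH3T3 array at 25 mM lies on one side and every K-ras array on the other.

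Across all 28 arrays Zmat3 went with the profile more than with the label. It lay between -0.81 and 0.11, with a median of -0.40, on the 14 arrays with the NIH3T3 profile, and between -0.44 and 0.89, with a median of 0.41, on the 14 with the K-ras profile. The 2 NIH3T3 arrays at 1 mM and 24 h, both with the K-ras profile, read 0.67 and 0.62. These ranges are a description, since the profile was read from the same arrays.

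**Figure D3:**
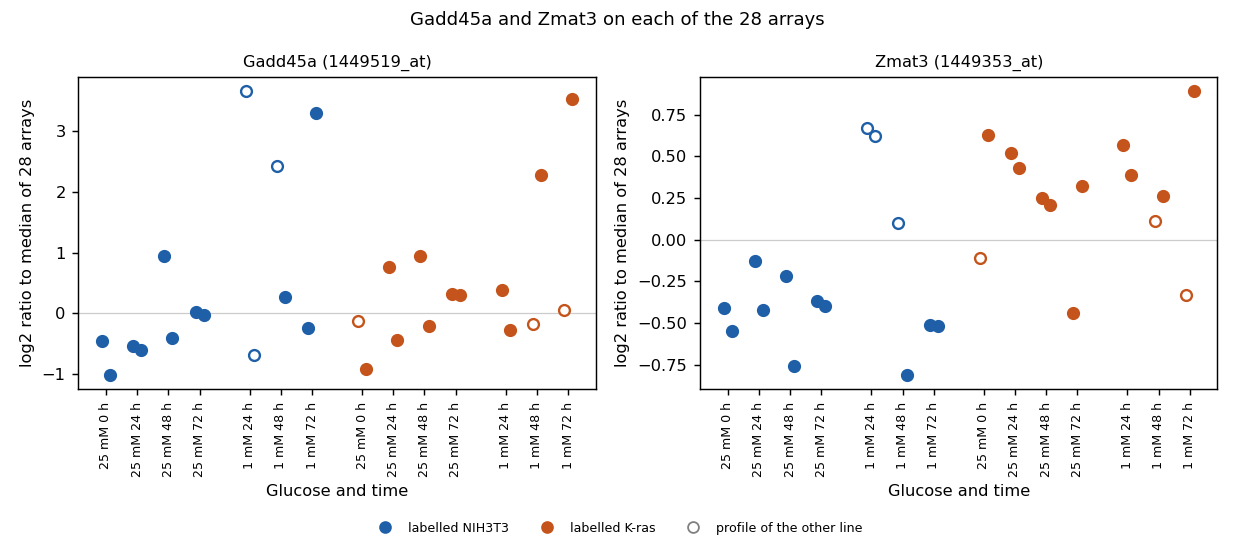
The log2 ratio of Gadd45a and of Zmat3 to the median of the 28 arrays is plotted for each array by glucose and time, in blue for NIH3T3 and orange for K-ras, with open points for the 6 arrays that have the profile of the other line. For Gadd45a 5 points at 1 mM lie above every point at 25 mM, and for Zmat3 most points labelled K-ras lie above most of those labelled NIH3T3.

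Cdkn1a read lower in the K-ras line without passing the test. Averaged over the 4 times at 25 mM the difference was -0.45 ± 0.18 on 1421679_a_at and -0.29 ± 0.12 on 1424638_at, with adjusted p = 0.121 and 0.163 by limma. The first was called without the second K-ras array at 72 h, which leaves the one that stood apart, at -0.60 (adjusted p = 0.0195 by limma). Without the array that stood apart it was -0.30 and not called. With the bioC level as a block the second turned to 0.04. At 1 mM and 72 h the separation was wider. Cdkn1a on 1424638_at read 0.74 and 0.82 in NIH3T3 and -0.28 and -0.55 in K-ras, a difference of -1.20 ± 0.25 (adjusted p = 0.0671 by limma). It was called without the first K-ras array, which has the NIH3T3 profile, at -1.33 (adjusted p = 0.0456 by limma). In that comparison 0 of the 19 were called by limma (0.114% of all) and 6 had an unadjusted p under 0.05 (12.4% of all). Leaving out the 6 arrays leaves 1 K-ras array, and 4 were then called against 6.64% of all probe sets. Zmat3 was higher by 1.40 ± 0.29, Cdkn1a on 1424638_at lower, at -1.33 ± 0.30, and Sesn1 lower on 1433711_s_at and 1454699_at. At 1 mM and 24 or 48 h 0 of the 19 were called by limma (0.0% of all at both), and 1 and 0 had an unadjusted p under 0.05 (2.19% and 1.09% of all). With the 6 arrays left out 1 array per line remains at 48 h. The median difference was then -0.16 over the member probe sets and 0.03 over all probe sets.

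At single times at 25 mM, 0 of the 19 were called between the lines by limma at 0 h (0.00286% of all), 24 h (0.0286%), 48 h (0.0%) and 72 h (0.704%), and 1, 5, 0 and 7 had an unadjusted p under 0.05 (5.03%, 14.2%, 9.82% and 19.9% of all). At 0 h 16 of the 19 differences were positive (43.6% of all), with a median of 0.48 against -0.04 over all probe sets. Without the 6 arrays 15 were positive (44.0% of all), with a median of 0.23. At 72 h 7 were positive (53.7% of all), with a median of -0.46 against 0.03. Most member probe sets, several of them of the same gene, thus read higher in K-ras at the start and lower at the end. These comparisons share their arrays with the time courses. At 72 h Sesn1 on 1433711_s_at differed by -2.21 ± 0.67 and Fas by -0.90 ± 0.25, with adjusted p = 0.0968 and 0.082 by limma. Both were called without the second K-ras array at 72 h, which leaves the one that stood apart, at -3.13 and -1.16, and not without the one that stood apart, at -1.30 and -0.63. After a second quantile normalisation they were -1.45 and -0.55, with adjusted p = 0.29 and 0.393 by limma. With the 6 arrays left out 0 were called at 0, 24 and 48 h by limma (1.74%, 4.72% and 4.44% of all), with 2, 6 and 2 at an unadjusted p under 0.05, and 4 were called at 72 h, all lower in K-ras, against 7.8% of all probe sets, 3 of Sesn1 and Fas with adjusted p = 0.0309 by limma.

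Glucose was compared at each time as 1 minus 25 mM. In NIH3T3 at 72 h, the time at which all 4 arrays had the profile of their label, 0 of the 19 member probe sets were called by limma, as was 1 probe set over all (0.00286%). An unadjusted p under 0.05 was held by 8 of the 19, 4 higher and 4 lower at 1 mM, against 6.6% of all probe sets. The 4 higher were probe sets of Btg2, Cdkn1a and Mdm2, and the 4 lower were of Sesn1 and Fas. No probe set of Gadd45a or Ccng1 was among the 8.

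Btg2, which slows entry into the cell cycle, differed most in relation to its error. On 1448272_at it read -0.33 and -0.65 at 25 mM and 0.33 and 1.07 at 1 mM, a difference of 1.19 ± 0.25 (adjusted p = 0.264 by limma). On 1416250_at it read -0.91 and -0.32 against 0.64 and 0.91, a difference of 1.39 ± 0.69. The 2 glucose groups did not overlap on either probe set. Cdkn1a on 1421679_a_at read -0.28 and 0.13 at 25 mM and 0.62 and 0.97 at 1 mM, a difference of 0.87 ± 0.35, and 1424638_at differed by 0.59 ± 0.25, with adjusted p = 0.679 and 0.682 by limma. Its 1 mM arrays were the 2 highest of the 28 on both probe sets. Mdm2 on 1423605_a_at differed by 0.69 ± 0.24 and on 1427718_a_at by 0.79 ± 0.40. The first was 1.0 without the first 25 mM array and 0.39 without the second.

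Sesn1 and Fas, which had risen at 25 mM, read lower at 1 mM. On 1438931_s_at Sesn1 read 2.58 and 1.71 at 25 mM and -1.59 and 0.29 at 1 mM, a difference of -2.79 ± 0.77 (adjusted p = 0.43 by limma). Fas read 1.06 and 1.01 against 0.33 and 0.43, a difference of -0.66 ± 0.25. On 1 of its 2 probe sets Trp53inp1 differed by -1.57 ± 0.87 and the arrays did not overlap. On the other, 1416927_at, they overlapped, at 0.16 and 0.56 at 25 mM against -0.01 and 0.77 at 1 mM. These values share the 25 mM arrays at 72 h with the time course. None of the values named here was called when any 1 of the 4 arrays was left out, and without the 6 arrays 0 were called by limma against 0.0486% of all probe sets, with 11 at an unadjusted p under 0.05.

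**Figure D4:**
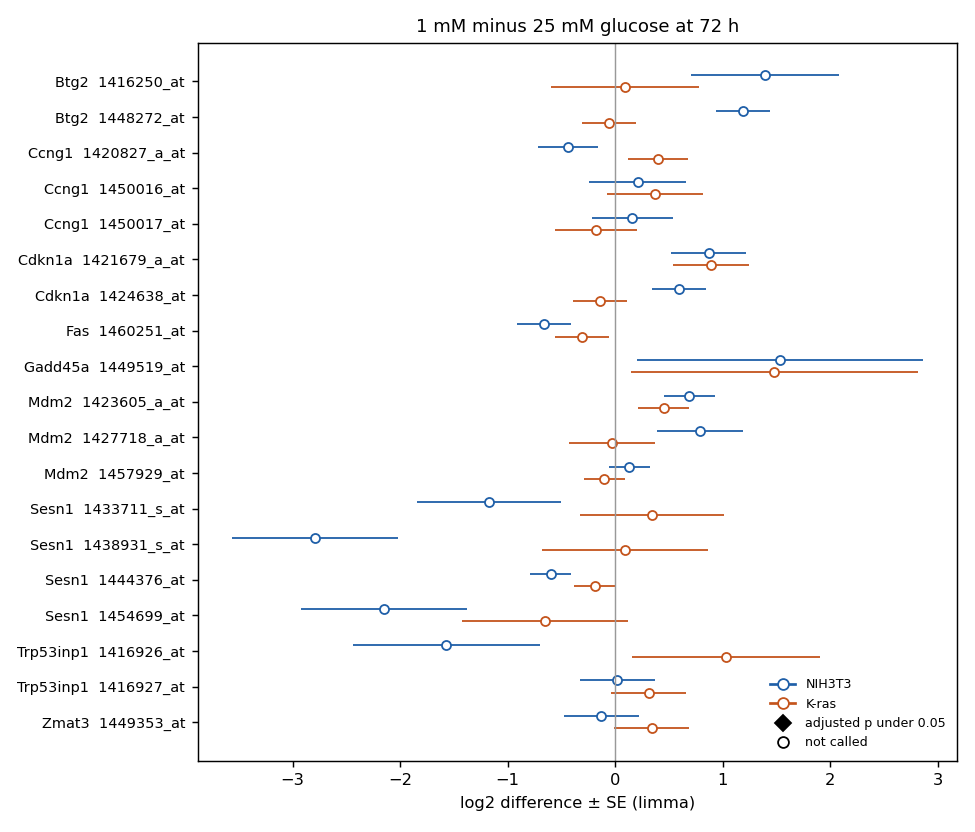
The log2 difference between 1 and 25 mM glucose at 72 h is plotted for each of the 19 member probe sets, in blue for NIH3T3 and orange for K-ras, with bars of 1 SE from limma. No probe set was called, so all are open circles, and the NIH3T3 points range from Sesn1 at -2.79 to Gadd45a at 1.53.

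At 24 h and 48 h in NIH3T3, where 3 of the 4 arrays at 1 mM had the K-ras profile, 0 of the 19 were called by limma (0.00858% and 0.0% of all), and 3 and 0 had an unadjusted p under 0.05 (15.1% and 1.67% of all). In the K-ras line 0 were called at 24, 48 and 72 h by limma (0.0%, 0.0% and 0.2% of all), with 0, 1 and 1 at an unadjusted p under 0.05 (0.781%, 4.42% and 14.6% of all). Leaving out the 6 arrays leaves 1 array at 1 mM and 48 h in each line. The median member difference at 48 h was then 0.03 in NIH3T3 and 0.04 in K-ras. Over all probe sets these medians were -0.04 and 0.02. For the mean of the 3 times in K-ras 0 were called by limma (0.00286% of all). Mdm2 on 1423605_a_at, at 0.31 ± 0.14, alone had an unadjusted p under 0.05 (8.57% of all). Without the 6 arrays, which leaves 1 array at 1 mM at 48 h and at 72 h, the median for that mean was -0.01. Over all probe sets it was 0.01. Cdkn1a at 72 h differed by 0.89 ± 0.35 on 1421679_a_at. The array that stood apart is in the 25 mM group, and the difference was 0.28 without it and 1.5 without its replicate, when it was called (adjusted p = 0.0124 by limma). On 1424638_at the difference was -0.14 ± 0.25, so the Cdkn1a probe sets differed in sign.

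Sesn1 in K-ras cells at 1 mM and 72 h depended on the array. On 1454699_at the 2 replicates read 1.38 and -2.14, on 1438931_s_at 1.89 and -1.47, and the first of them has the NIH3T3 profile. With the 6 arrays left out Sesn1 on 1454699_at was lower at 1 than at 25 mM, with a difference of -2.41 ± 0.49 (adjusted p = 0.0168 by limma) that rests on 1 array at 1 mM, and 1 of the 19 was called against 3.23% of all probe sets. Without the other replicate the difference was 1.11. The test of whether the glucose effect at 72 h differed between the lines called 0 of the 19 by limma (0.0% of all), and 3 had an unadjusted p under 0.05 (11.6% of all). Without the 6 arrays 1 K-ras array at 1 mM and 72 h remains. The median of this difference was then 0.13 over the member probe sets and -0.07 over all probe sets.

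Averaged over both lines and the 3 times, a comparison added after the values were seen, 0 of the 19 were called by limma (0.0% of all), and 5 had an unadjusted p under 0.05 (5.27% of all). Mdm2 on 1423605_a_at was higher at 1 mM by 0.36 ± 0.10 (adjusted p = 0.913 by limma) and stayed between 0.30 and 0.42 without any 1 array. Sesn1 differed by -0.60, -0.76 and -0.83 on 3 probe sets and Fas by -0.25 ± 0.10. Not all probe sets of these genes moved. Sesn1 on 1444376_at had medians of 0.01 over the 12 arrays at 1 mM and -0.02 over the 16 at 25 mM, 0 h included. For Mdm2 these medians were -0.02 and 0.02 on 1457929_at, and 0.16 and -0.16 on 1427718_a_at. Of the 19, 1 was called without the 6 arrays (0.3% of all), Sesn1 on 1454699_at at -1.24 ± 0.20 (adjusted p = 0.0294 by limma).

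Gadd45a, a growth-arrest gene of DNA damage and nutrient stress, was the member whose arrays at 1 mM differed most within a group. On the 16 arrays at 25 mM it lay between -1.01 and 0.94. On 5 of the 12 arrays at 1 mM it lay above all of those, at 3.66 (NIH3T3, 24 h, first replicate), 2.43 (NIH3T3, 48 h, first), 3.30 (NIH3T3, 72 h, second), 2.28 (K-ras, 48 h, second) and 3.53 (K-ras, 72 h, second). In each of those 5 groups the other replicate was not above, at -0.68, 0.27, -0.24, -0.17 and 0.05, and both K-ras arrays at 24 h stayed at 0.39 and -0.27. Of the 5 high arrays 4 had the K-ras profile and 1 the NIH3T3 profile. At 48 h in both lines and at 72 h in K-ras, the high array had the K-ras profile and its replicate the NIH3T3 profile. Profile and replicate cannot be told apart in those groups. In NIH3T3 at 24 and 72 h both replicates had the same profile. The mean difference between 1 and 25 mM over lines and times was 1.12 ± 0.54 (adjusted p = 0.942 by limma). In NIH3T3 at 72 h it was 1.53 ± 1.33, and -0.24 without the second replicate at 1 mM. The array-to-array spread is thus larger than the mean difference, and no glucose effect on Gadd45a was established.

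The members fell into no single pattern. Over the 28 arrays the SD was 1.48 for Trp53inp1 on 1416926_at, 1.34 for Gadd45a and 1.09 for Sesn1, the 99.34, 98.99 and 97.93 percentiles of all probe sets, and 0.48 for both Cdkn1a and Mdm2. Mdm2 (1427718_a_at) and Sesn1 (1438931_s_at) ran in opposite directions, with Pearson's r = -0.78 and Spearman's rho = -0.71 over the 28 arrays and r = -0.80 in NIH3T3 and -0.85 in K-ras, 14 arrays each. Without the 2 arrays farthest from the Mdm2 median r was -0.73. This pair was picked from 36 pairs of members after its values were seen, and the arrays share groups and processing, so it is given as a description with no test. Trp53inp1 and Gadd45a had r = 0.62 and rho = 0.77. The 3 genes that rose in NIH3T3 went together, with r = 0.57 for Trp53inp1 and Sesn1, 0.53 for Trp53inp1 and Fas and 0.62 for Sesn1 and Fas. Within NIH3T3 these were 0.75, 0.70 and 0.76, and within K-ras 0.02, 0.25 and 0.34. The 3 genes were picked by their rise on NIH3T3 arrays that these values include. A higher r in NIH3T3 than in K-ras follows from that choice, so the values are a description with no test. The highest value among the pairs was r = 0.68 for Cdkn1a and Ccng1, or 0.56 without the array that stood apart. The 3 Sesn1 probe sets that rose had r from 0.69 to 0.89 with each other, and the 2 Trp53inp1 probe sets had 0.47.

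Among all other named genes, those whose values were most like Trp53inp1 over the 28 arrays were Klhl24, Rsrp1 and Ahnak2, each with r = 0.96, and Pnrc1 with r = 0.95. For Mdm2 they were Set, the mitochondrial chaperonin gene Hspd1, Nrf1 and Luc7l, with r from 0.85 to 0.88. For Cdkn1a they were Cdc42bpa, Nhlrc2, Gas8 and Dhx32, with r from 0.83 to 0.88, and from 0.67 to 0.78 over the 27 arrays without the one that stood apart. The Trp53inp1 and Mdm2 values moved by at most 0.01 without it. No other member was among these genes.

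A wider list of 46 genes of the p53 pathway, 42 of them measured with 88 probe sets, gave the setting. In NIH3T3 over 72 h at 25 mM 3 of the 88 probe sets rose and 4 fell, against 3.14% and 1.97% of all probe sets. Those that rose were of Ddb2 and Cd82, and those that fell were of Aen and Epha2. The median was -0.12 against -0.07 over all probe sets. Ddb2, a damage recognition gene of nucleotide excision repair, rose by 1.65 ± 0.32 on 1436680_s_at. The metastasis suppressor gene Cd82 rose by 2.14 ± 0.40 on 1416401_at. The other Cd82 probe set differed by -0.2 ± 0.37 and was not called (adjusted p = 0.844 by limma). The nuclease gene Aen fell by 2.39 ± 0.47 on 1450506_a_at, and Epha2, an ephrin receptor gene, fell by 2.72 ± 0.40. Genes of this list were thus called in both directions in the same comparison, and their counts were not tested against the shares of all probe sets. Between the lines at 25 mM 1 probe set was higher in K-ras and 8 were lower, against 4.89% and 5.13% of all probe sets. Lif, a cytokine gene, was higher by 1.08 ± 0.25 on 1421207_at. Plk2, Ppm1d, the phosphatase that turns p53 signalling off, and Polk differed by -0.88 ± 0.23, -0.71 ± 0.18 and -0.66 ± 0.19. These values are of 1427005_at, 1434142_at and 1449483_at. The other probe sets of Lif and Plk2 differed by 0.08 ± 0.12 and 0.02 ± 0.11. Those of Ppm1d and Polk differed by -0.47 ± 0.17 and -0.28 ± 0.15. None of these other probe sets was called. Over 72 h in K-ras and for glucose at 72 h in NIH3T3 0 of the 88 were called by limma (0.0% and 0.00286% of all).

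Markers of other cell types moved little in the comparison with the most member calls. Over 72 h in NIH3T3 0 probe sets of the epithelial, leukocyte, endothelial, fat and skeletal muscle lists were called by limma, of 11, 5, 5, 5 and 7. Between the lines at 25 mM 4 of the 11 epithelial probe sets were lower in K-ras, 2 of the 5 fat and 1 of the 5 leukocyte probe sets were higher, and 1 of the 7 skeletal muscle probe sets was lower, with 2 of the 18 fibroblast probe sets higher. Their part in the Zmat3 difference was not tested.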

How the data were processed

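Total RNA of 28 cultures was hybridised to Affymetrix mouse arrays, 1 array each. RMA is named per the submitters' processing notes, whose version and role are not stated there. The log2 values as deposited, tested on the file, are log2 ratios of each probe set to its own median over the 28 arrays (median ratio 1 within 0.001 in 45101 probe sets), so levels and detection are unknown and the number of arrays limits the precision.

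Symbols came from the platform's annotation: 34945 probe sets had 1 symbol, 932 several, 9160 none and 64 were controls, and 34741 matched RefSeq by Entrez number. Groups follow the labels. limma 3.58.1 (R 4.3.3) was fitted with 1 coefficient per group on all 28 arrays, leaving 14 residual degrees of freedom. Benjamini-Hochberg adjustment ran over all 34945 probe sets in each of 24 comparisons, and an adjusted p under 0.05 was called. The script was tested on simulated data. All probe sets of each member were tested and counted, though some comparisons name only part of a gene's probe sets. Unless another is named, a gene is represented by the one with the largest SD, also when ranking genes of like pattern. Of the other p53 genes, at most 4 called per comparison with the largest differences are named.

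The members, gene lists and comparisons were chosen with earlier results of these data known. Alternatives were a second quantile normalisation, the replicate number as a block, the bioC level as a block, only the compared arrays, an SD filter, 1 probe set per gene, and leaving out single arrays or the 6 arrays with the other line's profile. Deviations of equally numbered replicates correlated between -0.645 and 0.657 (median -0.0325) over 91 pairs of groups, and 25.3% of the pairs were above 0.1. In 4 groups 1 array has the other line's profile, which enters these correlations. Whether the numbers pair the arrays is therefore not settled. Replicates are labelled biological. p-values measure the spread between these cultures of 2 lines.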

Additional observations from a re-analysis of the deposited data

How the results depend on the processing

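Of 662 alternative values of 51 named values, 6 of them called, 600 kept their direction and side of the threshold, 33 lost a call, 24 gained one and 5 reversed. All 33 lost calls were of the 6 called values, since the others had no call to lose. Over 72 h in NIH3T3, Trp53inp1 and Fas stayed called in 7 of 10 alternatives each. There the Sesn1 calls held in 6 of 10 on 1438931_s_at, 5 of 9 on 1454699_at and 3 of 9 on 1433711_s_at. The Zmat3 call between the lines held in 10 of 23. The reversed values were those of Cdkn1a over 72 h in NIH3T3 (-0.37 to 0.04 over single arrays left out), Cdkn1a on 1424638_at between the lines (0.04 with the bioC block), Sesn1 on 1454699_at between the lines at 1 mM and 72 h (-2.22 to 1.3 over single arrays left out) and for glucose in K-ras at 72 h (-2.41 to 1.11), and Gadd45a for glucose in NIH3T3 at 72 h (-0.24 to 3.3). The count of member probe sets called between the lines was 0 with the bioC block and 0 to 1 over single arrays left out. For 72 against 0 h it was 9 with only the compared arrays (23.5% of all probe sets) and 0 to 1 without single arrays in NIH3T3, 0 to 1 in K-ras and 0 to 1 for the difference between the lines. The last 2 calls came without the second K-ras array at 72 h, in fits that called 11.6% and 6.34% of all probe sets. For glucose averaged over lines and times it was 1 without the 6 arrays. The causes were not tested. With the replicate number as a block, 4 probe sets were called in NIH3T3 over 72 h (4.76% of all) and 1 between the lines (9.35% of all). In the first of these fits Sesn1 on 1433711_s_at had adjusted p = 0.053 by limma. Where a group kept 1 array, it was assumed to vary like the other groups. NIH3T3 at 1 mM and 24 h has no array left without the 6, so its comparisons have no value there.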
